A study of Mus musculus with 24 samples.

Results

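The genes described here are 10 transcription regulators that serum and bone morphogenetic proteins (BMPs) are known to induce: Id1, Id2, Id3, Id4, Fos, Fosl1, Junb, Jun, Egr1 and Srf. They are 10 of 21938 protein-coding genes, named by symbol and not by their accessibility. For each gene, peaks of open chromatin were taken within 1 kb of an annotated start, and in 501 bp windows over the gene body with 30 kb on either side. This gave 106 windows, of 105095 such windows near protein-coding genes.

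BMPs bind receptor kinases that phosphorylate SMAD1, SMAD5 and SMAD9, and the Id genes are among the first genes these SMADs switch on. Id proteins bind E proteins and keep them off DNA, and in mouse embryonic stem cells BMP supplied by serum supports self-renewal in this way together with LIF. Serum also acts through growth factor receptors and ERK. ERK phosphorylates ETS-family partners of SRF, and SRF binds CArG boxes at immediate early genes such as Fos, Junb and Egr1.

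ATAC-seq, in which a transposase cuts open DNA, was applied to E14 mouse embryonic stem cells, and 24 libraries in 12 groups of 2 replicates were used. All groups carried CTCF AID, that is CTCF fused to a degron that directs its breakdown when the auxin IAA is given. The serum set had this genotype alone and was grown in serum, without IAA or with 12 hours of it. The serum-free medium of the other sets held LIF and N2 and B27 supplements with the MEK inhibitor PD0325901 and the GSK3 inhibitor CHIR99021. Of these, the control line also carried an overexpression control and was sampled without IAA and after 12 hours of IAA. A line overexpressing wild-type CTCF and a line overexpressing mutated CTCF were sampled after 12 hours of IAA only. The Chd4 and the Chd8 set, both without IAA, each had a group labelled shluci and groups labelled shRNA1 and shRNA2. The labels did not say whether a line was 1 clone, nor whether replicates were separate cultures, so p-values measure only the spread between these libraries. The general growth protocol names serum-free medium for all samples, and the 4 serum libraries were placed by their own treatment label. Medium, genotype and library set therefore cannot be told apart in any comparison of serum with serum-free cells.

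The deposited lists held 59786 to 166697 peaks, and read depth was not given in the sources used here. Each list was reduced to its best 59786 peaks by the authors' −log10 p. A promoter's value is the rank percentile of its best peak inside its own list, with 100 the strongest. A 0 means that no peak within that distance of a start passed into the reduced list, which is a limit and not an absence of open chromatin. Peaks were narrower in the Chd sets, with a median of 114 to 248 bp, than elsewhere, with a median of 381 to 687 bp. Promoters of 8 of 8 embryonic stem cell markers were called in every serum and control-line library, and 2 to 8 of them in each of the 24 libraries. The fibroblast markers Col3a1, Postn and Lum were called in none of 24 libraries, Col1a1 and Col1a2 in 23 each and Thy1 in 14. The mean percentile over all 6 fibroblast markers was 37.1 to 39.3 in serum libraries and 12.0 to 24.8 in control-line libraries. The mean over the trophoblast markers Cdx2 and Elf5 was 33.5 to 63.9 in serum and 0.0 to 9.1 in the control line, and that over 4 endoderm markers 33.9 to 48.7 and 20.6 to 32.9. It was 18.9 to 43.4 and 14.4 to 27.3 over 3 mesoderm markers, and 66.4 to 76.9 and 68.5 to 71.6 over 3 neural markers. The part of these lists in the results below was not tested.

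Sequences under the peaks of Id1, Fos and Srf carry the elements through which these pathways are known to act, and they are shown for that reason. Of these regions the one at Id1 was called in all CTCF-line libraries and in no serum library. No Chd library called it either, though these were serum-free. The Fos and Srf promoters were called in all serum and CTCF-line libraries. Capitals mark matches to the 6 motifs searched on both strands: the CArG box, TGACGTCA (the cAMP response element), TGANTCA (the AP-1 site), CCGGAAG (an ETS site), GCGGGGGCG (an EGR site) and GGCGCC (a SMAD-binding element). No matches of different motifs overlapped in the windows or promoters of these genes. The first 3 sequences are the central 200 bases of a window on the plus strand of GRCm38, the build of the files. The Srf sequence comes from RefSeq's promoter table for GRCm38.p6, is on the minus strand, the strand of the gene, and runs from −250 to −51 bases of its start.
Id1, chr2:152735111-152735310, intergenic, about 1.0 kb upstream: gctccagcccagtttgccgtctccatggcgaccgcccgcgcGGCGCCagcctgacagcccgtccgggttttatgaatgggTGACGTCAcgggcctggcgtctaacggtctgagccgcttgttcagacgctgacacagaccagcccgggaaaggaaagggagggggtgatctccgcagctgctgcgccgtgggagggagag
Fos promoter, chr12:85473531-85473730: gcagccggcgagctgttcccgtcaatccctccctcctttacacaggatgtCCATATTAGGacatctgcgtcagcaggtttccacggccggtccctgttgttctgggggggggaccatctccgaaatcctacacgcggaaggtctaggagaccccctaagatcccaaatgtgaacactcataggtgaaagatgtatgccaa
Fos downstream, chr12:85485933-85486132, intergenic: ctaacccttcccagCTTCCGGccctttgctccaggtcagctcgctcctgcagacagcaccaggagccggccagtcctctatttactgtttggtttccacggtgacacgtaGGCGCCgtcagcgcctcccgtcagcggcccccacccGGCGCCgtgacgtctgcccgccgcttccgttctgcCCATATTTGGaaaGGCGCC
Srf promoter, chr17:46556213-46556412: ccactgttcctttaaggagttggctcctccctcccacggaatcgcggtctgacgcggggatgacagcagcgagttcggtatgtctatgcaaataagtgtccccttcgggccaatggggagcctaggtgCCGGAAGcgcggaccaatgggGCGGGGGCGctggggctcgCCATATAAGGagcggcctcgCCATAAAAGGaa
In the Id1 region GGCGCC begins at −1099 and TGACGTCA at −1060 bases from the start of the gene. The CArG box of the Fos promoter begins at −309, the place of the serum response element by which SRF is known to control Fos. The window 12.1 kb downstream of the Fos start holds a CArG box, an ETS site and 3 copies of GGCGCC. The Srf promoter holds CArG boxes at −82 and −62, next to an ETS site at −122 and an EGR site at −101.

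A CArG box lay in the central 200 bases of 6 of the 106 windows (5.66%), against 0.857% of all windows near protein-coding genes and 1.63% of all RefSeq promoters of 300 bases. These 6 windows were the Fos promoter and the window at 12.1 kb from its start, the Srf promoter, a promoter window of Egr1 with 3 CArG boxes, a window in the body of Junb and one at −23.2 kb from Jun. Every one of the 6 was called in all 8 libraries of the CTCF lines. The Fos, Srf and Egr1 windows were also called in all 4 serum libraries, the Junb window in 3 and the Jun window in 1. GGCGCC lay in 19 of the 106 windows (17.9%) against 5.01% of all windows, and in the RefSeq promoters of Fos, Id2 and Id4. The EGR site lay in 6 windows (5.66%) against 0.695% of all. The AP-1 site was found in 6.6% of these windows and in 6.33% of all. These matches are descriptions of letters, and promoter windows of these genes are rich in G and C. RefSeq's table matched 7 of the 10 genes. Its promoters of Fos, Id2, Id3, Id4, Jun, Junb and Srf had a GC content of 58.7% to 73.3%, against a median of 52.7% over all promoters.

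Of the Id genes, Id2 and Id4 had the strongest promoters in the serum and CTCF-line libraries, while Id1 ranged from 16.0 to 76.8 and Id3 from 0.1 to 67.7. At the promoter of Id2 (chr12:25093799-25097140, reverse strand) the control-line libraries stood at 92.2 and 91.6 without IAA and 95.1 and 91.9 with it. The serum libraries stood at 86.7 and 82.1 without IAA and 72.4 and 80.0 with it. Every serum library was thus below every control-line library, 80.3 ± 5.97 (SD, n = 4) against 92.7 ± 1.62 (SD, n = 4). This is the smallest p-value that 4 against 4 allows in an exact two-sided permutation test, 0.0286, and the Benjamini-Hochberg adjusted p over 14426 promoters was 0.0937. The fit with limma on log2(list length/rank) gave a difference of −1.41 ± 0.310 (SE) for Id2 with an adjusted p of 0.00914. That fit called 25.5% of 12558 promoters at an adjusted p under 0.05. Against the 4 shluci libraries, which were also serum-free, the order was the opposite. Those stood at 60.2, 0.0, 59.4 and 75.2, below the serum libraries without IAA.

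Egr1, a zinc-finger factor and a rapid target of ERK and SRF, showed the larger difference. Its promoter on chromosome 18 stood at 84.5 and 87.2 in the control line without IAA and at 93.6 and 90.7 with IAA. In serum it stood at 74.2 and 65.5 without IAA and at 70.5 and 69.9 with it. The groups did not overlap, in either IAA state alone or pooled, at 70.01 ± 3.60 (SD, n = 4) in serum against 89.0 ± 4.00 (SD, n = 4). The exact permutation p was 0.0286 and the adjusted p 0.0937, and limma gave −1.52 ± 0.287 (SE) on the log2 rank scale with an adjusted p of 0.00476. The shluci libraries stood at 54.7, 67.8, 65.4 and 90.0 and overlapped the serum libraries. Against that reference Egr1 was not called.

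No gene of the 10 had a promoter that was higher in all 4 serum libraries, and 2 had one that was lower in all 4. Over all 14426 promoters tested, 19.0% were higher in serum without overlap and 11.5% were lower. With the lists at their deposited length, 59786 to 82502 peaks in serum and 120137 to 139221 in the control line, 7 of the 10 were lower, where 38.8% of all promoters tested were lower and 3.50% higher. The other 8 genes overlapped between the media. Id4 stood at 91.2, 89.7, 86.2 and 85.6 in the control line and at 90.9, 90.0, 93.3 and 93.3 in serum. Fos ranged from 59.5 to 67.7 in the control line and from 65.5 to 74.1 in serum. Jun, the partner of Fos in AP-1, ranged from 89.9 to 92.4 and from 84.3 to 93.2, and Srf from 81.9 to 88.1 and from 73.2 to 87.8. Fosl1, a Fos-family gene, was among the weakest, from 30.6 to 40.9 in the control line and from 17.8 to 47.8 in serum. Id3 ranged from 35.1 to 57.8 in the control line, and in serum from 0.1 to 67.7, where the lowest value was that of IAA replicate 2.

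**Figure D1:**
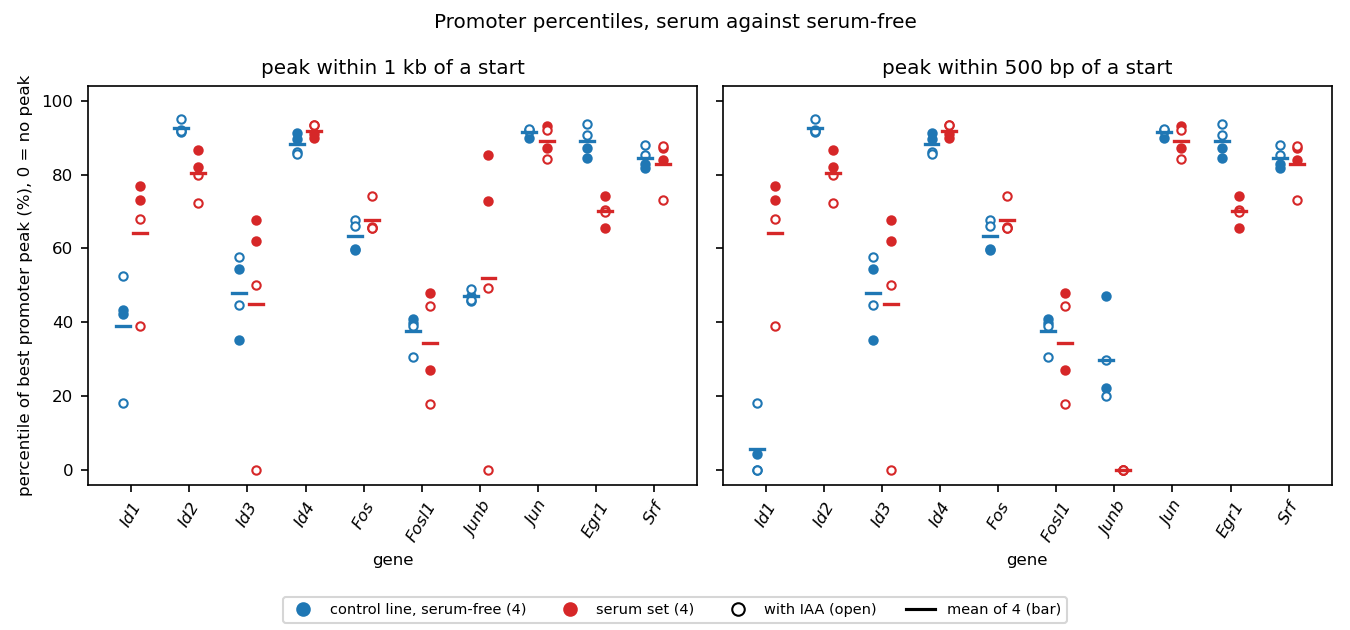
Percentile of the best promoter peak (vertical axis, %, 0 for no peak) of each gene in the 4 control-line libraries in serum-free medium (blue) and the 4 serum libraries (red), with open points for libraries with IAA and bars for means of 4, for peaks within 1 kb (left) and 500 bp (right) of a start. Id2 and Egr1 are lower in serum in both panels, and Id1 and Junb separate by medium only in the right panel.

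Id1 and Junb gave different answers at different distances, because each has a peak upstream of its start as well as one at the start. With a promoter of 500 bp, Id1 stood at 4.2, 0.0, 0.0 and 18.1 in the control line and at 76.8, 73.2, 68.1 and 39.0 in serum. The means were 5.59 ± 8.59 (SD, n = 4) and 64.3 ± 17.2 (SD, n = 4), with no overlap and an adjusted p of 0.0945 by the exact permutation test. Junb went the other way, with 22.2, 47.2, 20.1 and 29.8 in the control line and 0.0 in all 4 serum libraries. At 500 bp, 18.5% of 14107 promoters were higher in serum without overlap and 11.7% lower, and of the 10 genes Id1 was called higher and Egr1 and Id2 lower. Junb counted as lower too, but it passed the filter of 4 calls in 8 libraries through the control line alone, so that its call was fixed by the filter and supports nothing. Within 1 kb neither gene was called: Id1 stood at 42.2, 43.3, 52.4 and 18.1 in the control line, and Junb in serum at 85.4, 72.8, 0.0 and 49.4. Without serum IAA replicate 2 Id1 was higher in serum at 1 kb too, and without serum IAA replicate 1 so was Junb. Without control-line replicate 1 the same held for Id4.

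The peaks of Id1 (chr2:152736251-152737410, forward strand) show this in the deposited lists, where the 2 peaks can be ranked against each other within a list. Counts of lists with a peak are compared across lists of unequal length, 59786 to 82502 peaks in serum and 120137 to 139221 in the control line. In control-line replicate 1 one peak ran from −1746 to −966 bases and had the authors' fold over local background of 6.01, and a second peak, at the start, had a fold of 4.59. Replicate 2 had folds of 6.84 upstream and 4.82 at the start. With IAA the folds were 6.45 upstream and 3.45 at the start in replicate 1, and 4.88 and 5.27 in replicate 2. Over the 8 libraries of the CTCF lines both peaks were called in all 8, and the upstream peak had the higher fold in 7. In serum the start peak was called in 4 of 4 libraries with folds of 4.91, 4.37, 4.23 and 3.36, and the upstream peak in 1, IAA replicate 2, with a fold of 2.51 from −1666 to −1367 bases. The part of the region that holds GGCGCC and TGACGTCA was under a peak in the 4 control-line lists and under none of the 4 shorter serum lists. The 12 Chd libraries, also serum-free, called the −1.0 kb window in 0 lists even at their deposited length. Any upstream peak was called in 5 of them and a start peak in 8.

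Junb, an AP-1 gene (chr8:84974484-84978718, reverse strand), kept its upstream peak in serum and not the one at the start. All 8 libraries of the CTCF lines had a peak at the start and a peak ending about 0.8 to 1.0 kb upstream of it. In the 4 serum lists the upstream peak was called in 4 and the start peak in 0. The control-line start peaks had folds of 3.97, 5.24, 3.31 and 4.07. The serum upstream peaks had folds of 4.77, 3.94, 3.78 and 3.44. In the Chd sets a start peak was called in 1 of 12 lists.

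Across the 106 windows, 3 were called in all 4 serum and in no control-line library (2.83%, against 2.90% of all 105095). In the other direction 7 were called in all 4 control-line libraries and in no serum library (6.60%, against 7.59% of all). Both shares were near those of all windows. At the deposited list length 0 were called only in serum and 6 only in the control line, while 16.0% of all windows differed in one or the other direction. The serum-only windows lay at 17.9 kb from the Id1 start, in a UTR exon of Cox4i2, and at −17.1 and −28.9 kb from Junb, in coding exons of Hook2 and Best2. All 3 were below the limit rather than missing in most control-line lists, since at the deposited length 4, 4 and 3 of those 4 lists called them.

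The windows called in all 4 control-line and in no serum list were the Id1 pair at −1.0 and −1.6 kb, which shared 1 peak in the control-line lists, Junb at −0.1 and −7.6 kb, Jun at 1.5 kb, Id2 at −11.9 kb and Id4 at −15.7 kb. The intergenic window at −11.9 kb from Id2 stood at 64.4, 72.2, 79.3 and 73.8 in the control line and was called in all 4 libraries of the overexpression lines. It was called in 0 of 4 serum libraries, though 2 of 4 deposited serum lists held a peak there. The Id4 window at −15.7 kb, in an intron of A330033J07Rik and Gm49291, stood at 85.8, 84.2, 89.2 and 83.0 in the control line. No serum list called it at either length, and 9 of 12 Chd libraries did, 8 of them outside the Chd4 shRNA groups. The coding-exon window of Jun at 1.5 kb was called through a peak that also covered the promoter in both IAA libraries, at 91.9 and 92.4, and through low peaks at 15.8 and 1.2 without IAA. At 50% of the list length, the calls at Id2 and Id4 were unchanged, and the other 5 windows no longer separated the groups. The Id1 pair was then called in 1 control-line library, the Jun window in 2 and both Junb windows in 0.

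**Figure D2:**
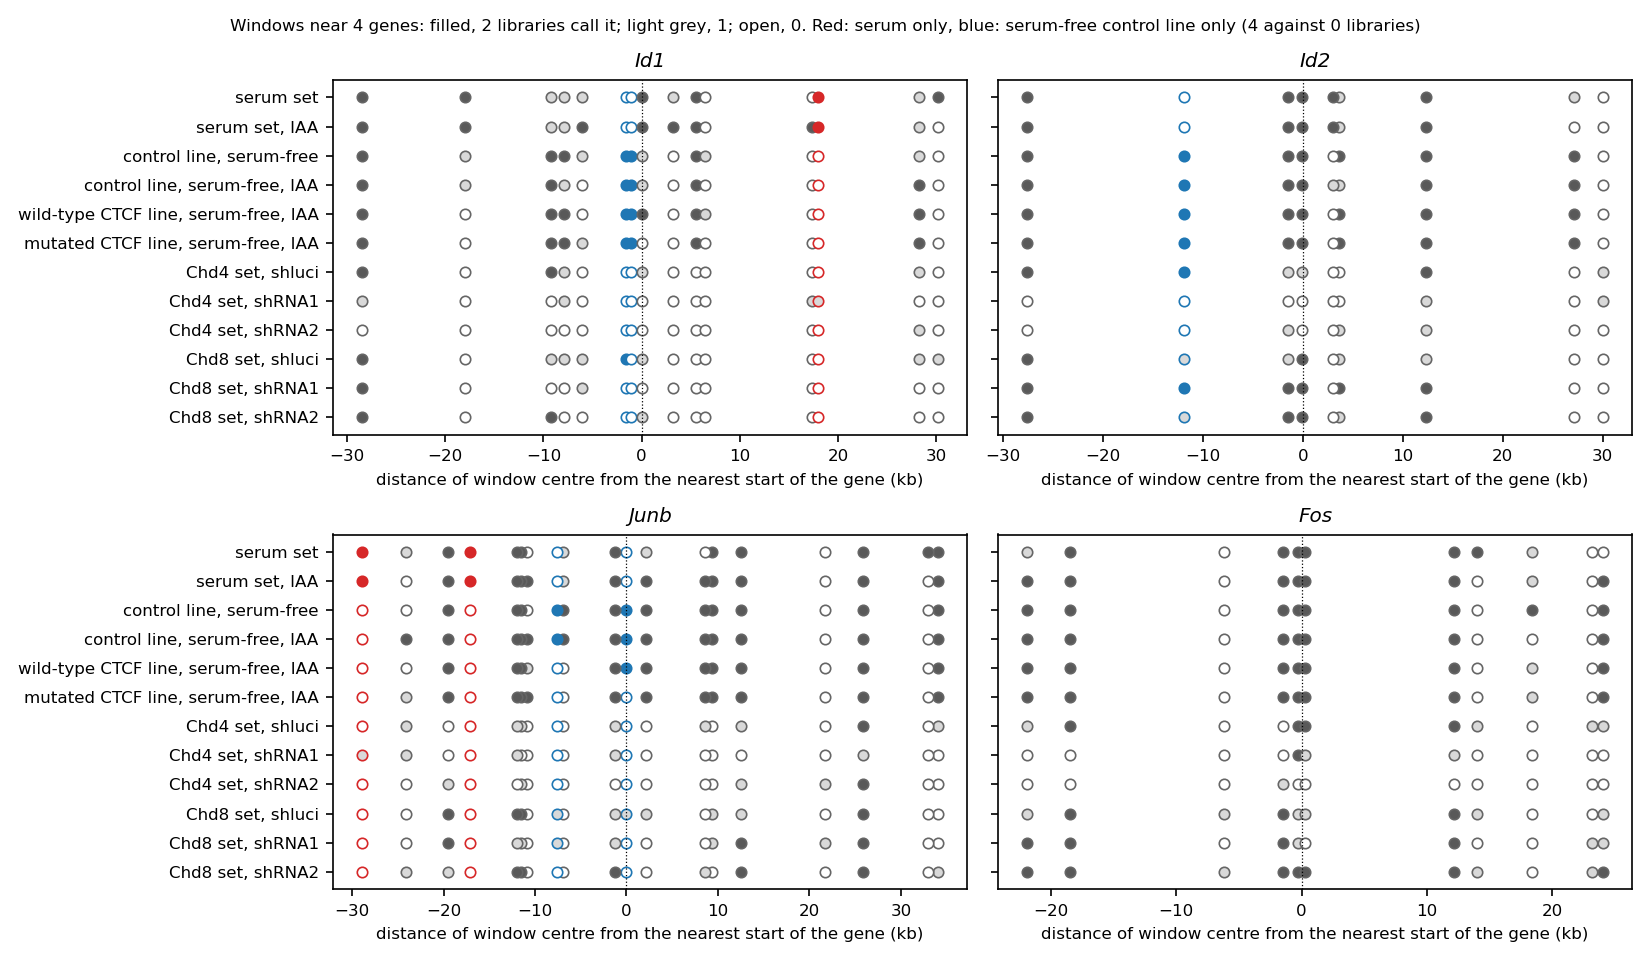
Windows around Id1, Id2, Junb and Fos: horizontal axis, distance of the window centre from the nearest start (kb); rows, the 12 groups; filled points, called in 2 libraries, light grey in 1, open in 0. Red windows were called in 4 serum and 0 control-line libraries, blue windows in 0 and 4; the blue pair beside the Id1 start, the blue Id2 window at −11.9 kb and the blue Junb window at −0.1 kb are empty in both serum rows, and Fos has no coloured window.

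Other genes of these pathways were taken from lists. Of 24 BMP pathway genes 23 passed the call filter, 2 were higher in serum and 2 lower, where 19.0% and 11.5% of all promoters were. The median difference of 0.66 was close to the 1.07 of all promoters. Smurf2, a ubiquitin ligase for SMADs, stood at 86.5 ± 2.30 in serum and 78.3 ± 5.17 in the control line (SD, n = 4 each), and the BMP receptor gene Bmpr1b was higher by 3.29 points. The receptor gene Bmpr1a stood at 54.1 ± 6.59 against 76.4 ± 7.65, and the signal transducer Smad1 at 85.8 ± 4.78 against 96.4 ± 1.50.

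Among 20 other immediate early genes, 1 was higher in serum and 4 were lower, with a median of −4.21, beside the 19.0% higher and 11.5% lower of all promoters. One of the 4, Egr3, of the Egr1 family, was called at 64.6, 62.6, 55.8 and 63.8 in the control line and in no serum library, so that it passed the filter through the control line alone and had to differ. Ccn1 stood at 36.6 ± 12.6 against 58.5 ± 6.98, Jund, a Jun-family gene, at 65.5 ± 8.93 against 84.1 ± 3.56, and Myc was higher at 75.8 ± 7.49 against 58.9 ± 4.95. Of 12 genes of ERK feedback and the ETS family 1 was higher and 4 were lower, with a median of −6.14. Phlda1 stood at 57.1 ± 14.6 against 90.1 ± 0.822, Ets2 at 76.0 ± 6.79 against 86.5 ± 3.74 and Spry2, a feedback inhibitor of receptor signalling, at 83.7 ± 4.61 against 91.9 ± 1.54. Spred2, also an inhibitor of this pathway, was higher at 89.9 ± 6.72 against 67.5 ± 2.92.

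Of 16 SRF cofactors and cytoskeletal targets 13 passed the filter, with 3 higher in serum without overlap, 3 lower and a median of 0.60, beside 19.0% higher, 11.5% lower and a median of 1.07 over all promoters. Of the 3 higher, Cnn1, calponin, was called in 1 of 4 control-line libraries, at 2.1, and at 45.2, 50.4, 48.3 and 40.0 in serum. Its serum calls alone met the filter. Myl9, a myosin light chain, stood at 68.5 ± 3.03 against 25.3 ± 13.2, and Tagln, transgelin, at 51.7 ± 4.55 against 12.0 ± 12.7. Actb, cytoplasmic actin, was lower at 57.5 ± 16.0 against 80.4 ± 2.52. The adjusted p of each gene named from these lists, Egr3 and Cnn1 aside, was 0.0937 in the exact permutation test, the value of every promoter without overlap. The mean over the fibroblast markers, given above, was also higher in serum, and its part in these values was not tested.

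IAA was given for 12 hours to remove CTCF. With 2 libraries against 2 no exact permutation test can go below 0.33, so these values are descriptions, and the counts of promoters without overlap were near the share of all promoters in both media. In serum-free medium 5 of the 10 promoters did not overlap, against 42.2% of 14074. Fos, Egr1 and Srf were higher with IAA, Egr1 by 6.33 and Fos by 7.24 points, and Id4 and Fosl1 lower. In serum 5 did not overlap, against 36.6% of 14598. There Id1 stood at 68.1 and 39.0 with IAA against 76.8 and 73.2 without, Id2 at 72.4 and 80.0 against 86.7 and 82.1, and Id3 at 50.1 and 0.1 against 67.7 and 62.0. Junb stood at 0.0 and 49.4 against 85.4 and 72.8, and Id4 at 93.3 and 93.3 against 90.9 and 90.0. Of these, Id4 was the 1 with both IAA libraries above both untreated ones. The Junb value of 0.0 is a matter of distance. In that library the upstream peak ran from −1544 to −1066 bases, outside 1 kb. Its window at −1.3 kb stood at 69.8 there, still below both untreated libraries.

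Windows near these genes were gained and lost with IAA in both media, and the difference between media was not tested. In serum-free medium 5 of 106 were gained (4.72%, against 2.56%) and 3 lost (2.83%, against 3.29%). In serum 7 were gained (6.60%, against 3.16%) and 9 lost (8.49%, against 3.67%). The serum count of 16 became 28 without serum replicate 1. Leaving out a library loosens the rule, so that a count can only stay or rise. At 50% of the list length 4 windows changed in serum-free cells and 5 in serum, against 2.85% and 3.50% of all windows. With peaks at a −log10 q of at least 10 the order turned, with 4 in serum-free cells and 1 in serum, against 0.766% and 0.903% of all. At the deposited length the serum-free balance turned to 2 gained and 7 lost, against 0.892% and 3.97% of all. In serum it was then 6 gained and 7 lost, against 4.31% and 2.86% of all. Without serum, the strongest were Srf at 30.3 kb, in a coding exon of Cul9, lost from 36.1 and 49.3, and an intergenic window at −10.9 kb from Junb, within 1 kb of a Hook2 start, gained at 26.9 and 51.2. The strongest in serum were a UTR-exon window of Jun at 0.7 kb, gained at 92.0 and 84.3, Fosl1 at 16.4 kb, in an intron of Fibp, lost from 65.6 and 60.7, and Fos at 14.0 kb, lost from 56.2 and 43.7. The Jun values are those of the promoter peak, which reached this window only with IAA. Without IAA the Jun promoter was called at 93.2 and 87.2, by peaks that ended 320 and 297 bases after the start. Junb at 8.6 kb, in an intron of Prdx2, was gained at 45.5 and 47.9, and Id4 at 12.5 kb, within 1 kb of a start of A330048O09Rik, was lost from 52.2 and 39.6. The window at 9.4 kb from Junb had the same values with IAA and was also called without it, at 54.7 and 17.9.

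A pair of windows, singled out after their values were seen, changed the same way in both media. The Junb window at −10.9 kb was called in neither untreated group and in both libraries of both IAA groups, at 2.0 and 32.8 in serum. The intergenic window at −9.6 kb from Egr1 went from 25.2 and 36.9 to 0.0 in both libraries in serum-free medium and from 54.8 and 24.7 to 0.0 in both in serum. In the line overexpressing wild-type CTCF and given IAA the Junb window stood at 31.6 and 0.0, and it was called in both libraries of the mutated line, at most at 28.0. The Egr1 window was called in the wild-type line at 1.5 and 15.7, and in the mutated line at 32.9 in 1 of 2 libraries. Neither window was strong, with highest values of 51.2 and 54.8. At the deposited length all 4 control-line lists called the Junb window.

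The overexpression lines were compared with the control line given IAA. With wild-type CTCF 6 promoters did not overlap, against 41.5% of 13969, with Id4, Jun and Srf higher and Id2, Fos and Egr1 lower. With mutated CTCF 4 did not overlap, against 37.4% of 14027, all lower: Id2, Id4, Fos and Jun. Fos stood at 54.4 and 60.3 with wild-type and at 62.2 and 65.2 with mutated CTCF, against 67.7 and 66.1. Id2 stood at 91.3 and 89.0 and at 88.0 and 84.2, against 95.1 and 91.9. These 2 comparisons share the control libraries.

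Of the 106 windows, 2 were gained (1.89%, against 1.78%) and 7 lost (6.60%, against 2.05%) with wild-type CTCF. With mutated CTCF 1 was gained (0.943%, against 1.68%) and 6 lost (5.66%, against 1.63%). Under the looser rule with a library left out, 13 changed without control-line IAA replicate 1 and 12 without mutated-line replicate 2. With wild-type CTCF the strongest were Id4 at 0.5 and 1.0 kb, called at 86.2 and 85.6 through 1 wide peak in the control line and below the limit with wild-type CTCF, while the Id4 window at −0.4 kb stayed called. Both deposited wild-type lists still held a separate peak over these 2 windows, with folds of 5.49 and 4.27. Srf at 30.3 kb, lost with IAA, was called again at 38.8 and 12.7 with wild-type and at 38.2 and 24.7 with mutated CTCF. Srf at 9.8 kb and Fosl1 at 13.0 kb, gained with IAA, were called in no library of either overexpression line, and Junb at −24.1 kb in none with wild-type and 1 of 2 with mutated CTCF. The other 2 windows gained with IAA were called more often, Junb at −10.9 kb in 3 of these 4 libraries and Fosl1 at 21.0 kb in 2. The IAA libraries that defined these gains are the reference here too. At the deposited length each of these gained windows was called in all 4 control-line lists, with and without IAA. With mutated CTCF the loss with the highest values was Jun at 1.5 kb, from 91.9 and 92.4, which are those of the wide promoter peak. In the mutated line the Jun promoter was still called at 89.7 and 85.3, by peaks that ended 1107 and 1101 bases after the start, short of this window. The Junb window at −0.1 kb went from 20.1 and 29.8 to below the limit, its peak still being in both deposited lists with folds of 3.52 and 2.90. At the deposited list length the balance turned, with 2 lost and 4 gained for wild-type CTCF and 2 lost and 5 gained for mutated CTCF. It turned over all windows too, with 0.690% lost and 2.59% gained for wild-type and 0.538% and 2.30% for mutated CTCF.

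**Figure D3:**
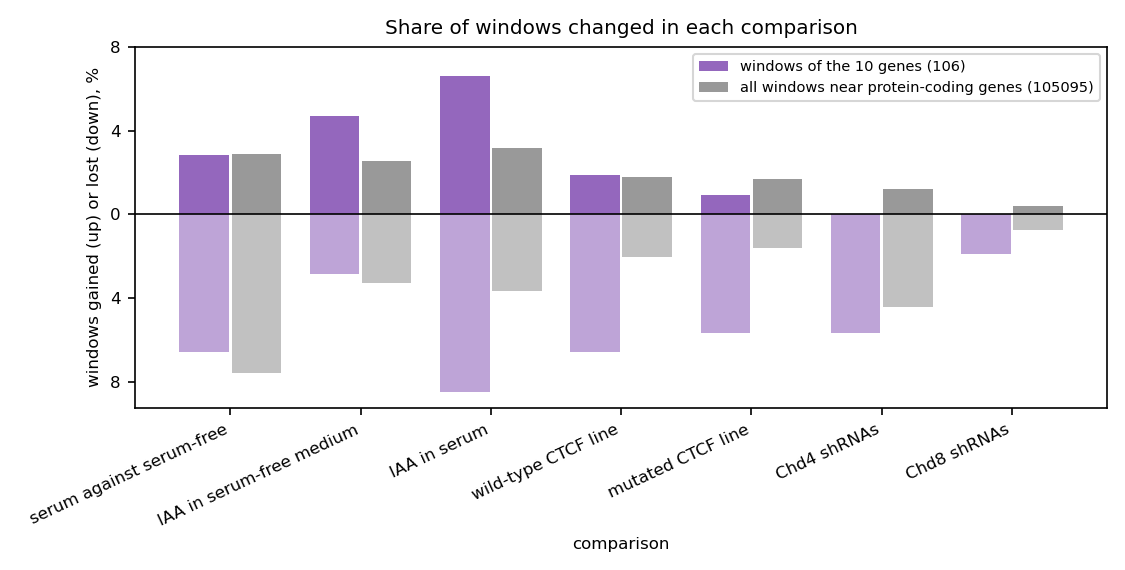
Share of windows gained (upward bars) and lost (downward bars) in each of 7 comparisons, in percent, for the 106 windows of the 10 genes (purple) and all 105095 windows near protein-coding genes (grey). The purple bars exceed the grey for IAA in serum, 6.60% gained and 8.49% lost, for gains with IAA in serum-free medium, 4.72%, and for losses in the overexpression lines, 6.60% and 5.66%, and in the Chd4 and Chd8 sets, 5.66% and 1.89%; for serum against serum-free and for gains with wild-type CTCF they are about level.

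Chd4, the ATPase of the NuRD remodelling complex, and Chd8, a remodeller known to bind CTCF, were the targets named for the shRNA sets, and peak lists cannot check their knockdown. These libraries called fewer of the 10 promoters than the others. The Chd4 set called 2 to 5 of 10, while 35.4% to 50.1% of all promoters were called, and the Chd8 set 4 to 7 of 10, while 49.1% to 56.8% were. At the deposited length the Chd4 lists held peaks at 2 to 7 of the 10 promoters, with 45.8% to 60.5% of all, and the Chd8 lists at 6 to 10, with 62.3% to 67.9%. The Id3 promoter then went from 1 to 7 of the 12 Chd libraries, Id1 from 3 to 8, and Id4 from 4 to 8. The CTCF lines called 10 of 10 in every library, with 61.2% to 63.8% of all promoters, and the serum libraries 9 or 10. Jun was called in 24 of 24 libraries, Fos and Egr1 in 20, Id2 in 19, Srf in 18, Id4 in 16, Id1 in 15, Junb in 14, and Fosl1 and Id3 in 13.

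**Figure D4:**
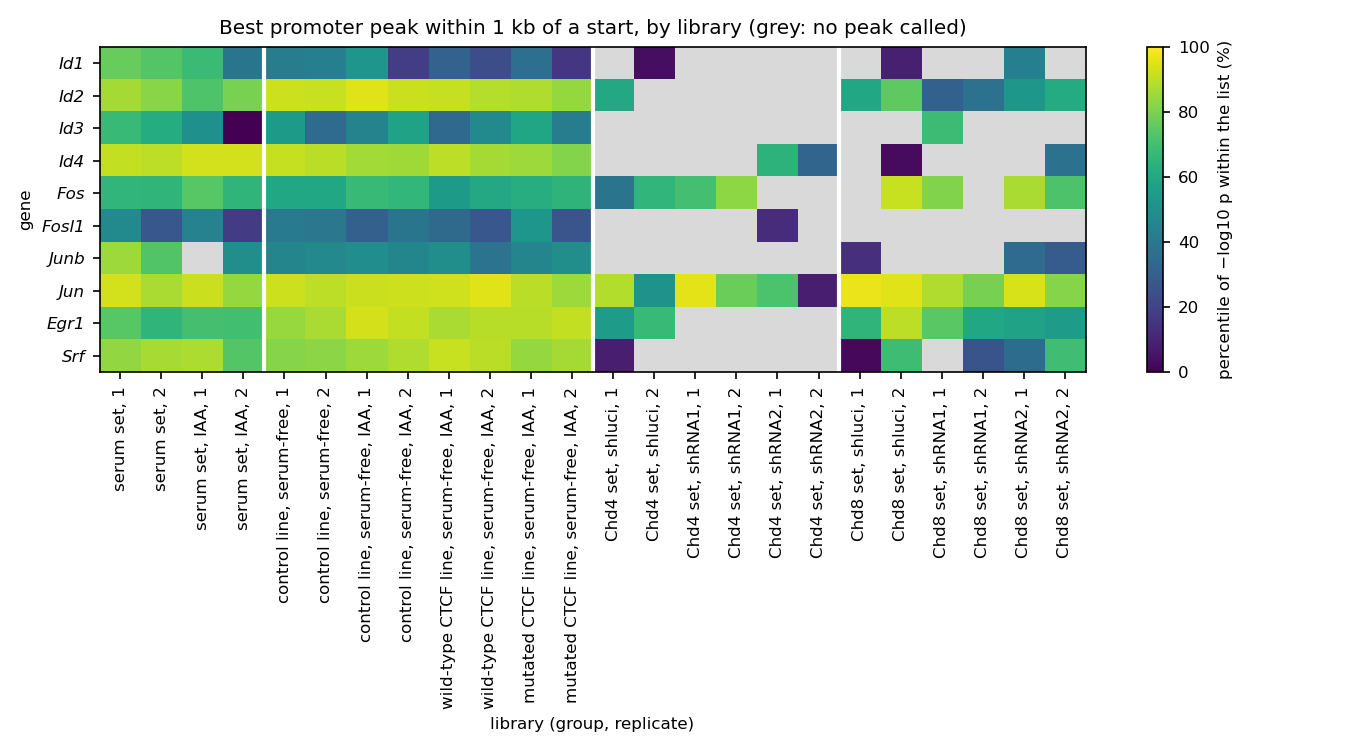
Percentile of the best promoter peak within 1 kb (colour, %; grey, no peak in the reduced list) for the 10 genes (rows) in 24 libraries (columns, by group and replicate). The Jun row is filled throughout, while the Fosl1 and Id3 rows have 1 filled cell each in the 12 Chd libraries.

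In the Chd4 set the Egr1 promoter was called in both shluci libraries, at 54.7 and 67.8, and in none of the 4 shRNA libraries. Of the 4 promoters called in at least 2 of the 6 libraries it was the 1 without overlap, against 28.8% of 12249. It passed that filter through the shluci libraries alone and so had to differ, and its values are a description. With 2 against 4 libraries no exact permutation p can go below 0.067. Jun was called in all 6, at 88.4 and 51.2 in shluci, 95.9 and 77.5 with shRNA1 and 71.8 and 8.5 with shRNA2. Fos was called at 38.5 and 65.8 in shluci and at 70.1 and 82.9 with shRNA1, and in no reduced list with shRNA2, though 1 of those 2 deposited lists held a peak. Id4 stood at 0.0 in both shluci libraries and both shRNA1 libraries and at 64.6 and 32.7 with shRNA2, and 1 deposited shluci list held a peak. Id2 and Srf were each called in 1 shluci library, at 60.2 and 8.4, and Id3 and Junb in none of the 6. At the deposited length Srf and Id3 had a peak in both shluci lists and in none of the 4 shRNA lists, as Egr1 had.

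Of the windows, 0 were gained and 6 lost with both Chd4 shRNAs (5.66%, against 4.42% lost and 1.23% gained of all). The strongest were Fos at −18.5 kb, from 78.6 and 91.1, and Id2 at −27.6 kb, from 78.4 and 82.3, both intergenic, then the Egr1 promoter window, Id3 at 3.5 kb, from 63.6 and 57.8, and Id1 at −9.2 kb, from 37.7 and 71.1. All 5 were called in every CTCF-line library, and the windows of Fos, Id2, Id3 and Egr1 also in every serum library. The count was 14 without shluci replicate 1, 12 without shluci replicate 2 and 10 without shRNA1 replicate 1. Fewer libraries loosen the rule, so that such counts can only stay or rise. The 2 shluci libraries called 28 and 32 of the 106 windows, and the 4 shRNA libraries 15 to 20, while the share of all windows called was 36.9% and 38.2% in shluci and 28.7% to 31.7% with the shRNAs.

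In the Chd8 set Jun was the 1 of 8 promoters without overlap, against 10.3% of 13162, at 96.9 and 95.1 in shluci and between 79.4 and 93.8 with the shRNAs. Egr1 was called in all 6 libraries, at 65.4 and 90.0 in shluci and between 54.7 and 74.3 with the shRNAs. Id2 was also called in all 6, at 59.4 and 75.2 in shluci and between 31.0 and 61.4 with the shRNAs. Fos ranged from 0.0 to 91.6 over the 6 libraries. Fosl1 was called in none of the 6, and Id3 in 1, at 68.6 with shRNA1. No window was gained and 2 were lost (1.89%, against 0.757% lost and 0.415% gained of all), Id1 at −1.6 kb from 30.0 and 36.7 and Id3 at 16.7 kb from 14.7 and 1.2. The count was 12 without shluci replicate 2 and 10 without shluci replicate 1, again under the looser rule.

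Over all groups Jun was called most widely. Its window at −1.2 kb, in an intron of Junos, was called in all 24 libraries, the 1 window of 106 (0.943%) for which this held, against 4.65% of all windows. In the 12 libraries of the serum set and the CTCF lines 33 of 106 windows (31.1%) were called throughout, against 26.1% of all.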

How the data were processed

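ATAC-seq peak lists of 24 libraries in 12 groups of 2 were used. Trim Galore, Bowtie2, MACS2 and deepTools and the build mm10 are named in the submitters' processing notes, without versions or roles. The lists are in narrowPeak layout. The deposited −log10 p and −log10 q are the authors' scores of each peak, with a lowest −log10 q per list of 1.301 to 1.311. The deposited fold is the authors' ratio of peak signal to local background. All were used only within a list. Reads were not analysed here, and no counting interval is given. Groups came from the labels.

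Lists were reduced to 59786 peaks by −log10 p. Promoters used GENCODE vM21 starts within 1000 bp. Windows of 501 bp around summits, called by at least 2 libraries, were kept, and a window counted as called with any overlap, so that 1 wide peak can call several windows and give them its percentile. Window comparisons asked for all libraries on one side and none on the other, with no test. The serum comparison used promoters called in at least 4 of 8 libraries, an exact two-sided permutation test with Benjamini-Hochberg adjustment, and limma 3.58.1 (R 4.3.3) as an alternative, which left out Junb, called in 7 of 8 libraries. The tests were tried on simulated data. At most 0.224% of intervals were identical between replicates.

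All 10 genes were named, windows by the size of their percentile (up to 5 per comparison) and list genes by the size of their difference (up to 4 per list). The genes and lists were chosen with earlier results of these data known. Alternatives varied list length, the q threshold, promoter and flank distance, overlap, the reference group and single libraries. Python 3.11.15, numpy 2.4.6, pandas 2.3.3 and scipy 1.17.1 were used.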

Additional observations from a re-analysis of the deposited data

Results flagged for a closer look

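The Id4 promoter moved in opposite directions with IAA in serum-free medium and in serum. In the control line both IAA libraries, at 86.2 and 85.6, were below both untreated ones, at 91.2 and 89.7, a mean difference of −4.57 percentile points. In the serum set both IAA libraries, at 93.3 and 93.3, were above the untreated ones, at 90.9 and 90.0, a mean difference of 2.80 points. The difference between these effects was not tested.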

How the results depend on the processing

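The count of 2 promoters differing between serum and the control line, Egr1 and Id2, was 7 (all lower) with lists at their deposited length, whose unequal lengths enter the percentiles. With peaks at a −log10 q of at least 10 it was 1 (Id2, lower), where 12.4% of 4638 promoters were higher and 16.9% lower. Promoters of 500 bp gave 4 (Junb among them, by the filter). When both sides were changed, to the 2 serum libraries without IAA against the 4 shluci libraries, it was 7 (all higher, Id2 among them), where 38.5% of all promoters were higher in serum and 6.17% lower. Of these 7, Id3 and Fosl1 were called in no shluci library, so that they could only be higher. With a replicate block the count was 3, Id1 higher and Id2 and Egr1 lower. Limma called 2 without a replicate block, against 25.5% of 12558 promoters. It called 2 with a replicate block, against 24.6%, a fit added after seeing the data. Replicate numbers did not pair the libraries, since deviations of the same number correlated at −0.000745 without IAA and 0.0476 with it. For windows, the counts at the deposited list length were 6 for serum, 10 for Chd4 and 0 for Chd8, while 16.0%, 5.97% and 1.50% of all windows changed. At 50% of the shortest list they were 4 for serum, 4 and 5 for IAA in serum-free medium and in serum, 2 and 4 for wild-type and mutated CTCF and 0 for Chd8, against 5.74%, 2.85%, 3.50%, 2.14%, 1.70% and 0.716% of all windows. With a −log10 q of at least 10 they were 2, 4, 1, 1, 2, 0 and 1 in the order serum, IAA serum-free, IAA serum, wild-type, mutated, Chd4 and Chd8, against 1.36%, 0.766%, 0.903%, 0.668%, 0.508%, 1.43% and 0.173% of all. With 10 kb flanks they were 5 for serum, 3 and 7 for IAA, 3 for Chd4 and 1 for Chd8, against 10.3%, 5.67%, 6.66%, 5.59% and 1.15% of all. When a peak had to cover 50% of a window, Chd4 gave 2 and Chd8 0, against 3.52% and 0.235% of all. The 2 serum libraries without IAA against the 4 shluci libraries gave 16, against 9.80% of all. Leaving out 1 library gave 19 to 28 for IAA in serum, 9 to 13 for mutated CTCF, 6 to 14 for Chd4 and 2 to 12 for Chd8. That loosens the rule, so that these counts can only stay or rise, and no share of all windows was computed for them. The cause of these shifts was not tested. A list's limit bounds every 0 given here.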
